A study of Mus musculus with 4 samples.

Results

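The genes described here are 9 PARP genes and Dtx3l, 10 of the 34745 genes in the deposited table, taken by exact symbol. They fall into a pair of sets: Parp9, Parp10, Parp11, Parp12, Parp14 and Dtx3l form an interferon-induced set of 6, and Parp1, Parp2, Parp3 and Parp4 a constitutive set of 4. The symbols were chosen with the difference between MB-3 and DMSO already known, so for these 10 genes that difference is a description and is not tested. MB-3 libraries came from adherent peritoneal macrophages that thioglycolate (2 ml of 3%, 3 days) had drawn into the cavity of wildtype C57BL/6 mice. The cells had received 50 µM MB-3, a compound known as a blocker of the acetyltransferase GCN5 (gene Kat2a), before a stimulus of 100 ng/ml of lipopolysaccharide (LPS), a bacterial outer membrane component, that lasted 4 hours. DMSO libraries came from the same kind of cells given the solvent and the same LPS, with 2 libraries in each group. All 4 libraries therefore carry LPS, and with no unstimulated or interferon-treated cells analysed here, the names "interferon-induced" and "constitutive" could not be checked as such. The title of the series speaks of macrophages grown from bone marrow, whereas the sample labels say peritoneal, which is followed here.

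PARP proteins take ADP-ribose from NAD+ and attach it to other proteins, either as long chains or as single units. PARP1 and PARP2 build chains at DNA breaks, while PARP10, PARP11, PARP12 and PARP14 attach single units, and their genes are known as interferon-stimulated genes. PARP9 works in a complex with DTX3L, a ubiquitin ligase of the Deltex family, that acts in interferon signalling and at damaged DNA. Macrophages are known to make type I interferon after LPS.

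Promoter windows from RefSeq on build GRCm38.p6 (250 bases before to 50 after a start site) were found for 7 of the 10 genes, in 8 windows because Parp11 has 2 start sites. Each was searched on both strands for the core of the interferon-stimulated response element, the site of the ISGF3 factor, written GAAANNGAAA, and for the core of the GAS element, another interferon response site, written TTCNNNGAA. Stretches before the start are shown, from the member with the highest DMSO level per length (FPKM), the members with the lowest log2 fold changes of each set, and the constitutive member whose window holds a response element core. They are given 5′ to 3′ on the gene's strand, with matches in capitals and with bases that lie in an exon left out.
Parp11: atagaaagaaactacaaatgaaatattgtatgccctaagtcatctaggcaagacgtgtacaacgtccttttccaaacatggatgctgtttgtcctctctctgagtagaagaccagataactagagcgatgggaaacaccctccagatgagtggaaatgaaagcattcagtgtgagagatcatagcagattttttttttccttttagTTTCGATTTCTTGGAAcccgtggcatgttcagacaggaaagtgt
Parp4: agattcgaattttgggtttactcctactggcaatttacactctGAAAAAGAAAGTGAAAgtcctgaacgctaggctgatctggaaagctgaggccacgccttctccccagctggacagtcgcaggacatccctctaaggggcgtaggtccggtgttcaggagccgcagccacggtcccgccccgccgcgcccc
Parp12: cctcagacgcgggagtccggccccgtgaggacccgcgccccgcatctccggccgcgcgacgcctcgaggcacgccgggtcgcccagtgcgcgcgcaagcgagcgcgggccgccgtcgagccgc
Parp3: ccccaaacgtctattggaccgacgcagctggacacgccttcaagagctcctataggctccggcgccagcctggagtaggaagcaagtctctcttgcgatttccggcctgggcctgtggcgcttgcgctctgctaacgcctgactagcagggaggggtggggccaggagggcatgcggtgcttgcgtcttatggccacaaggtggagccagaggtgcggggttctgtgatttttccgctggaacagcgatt
The stretches are chr6:127446590-127446839 on the plus strand for Parp11, chr14:56575426-56575618 on the plus strand for Parp4, chr6:39118350-39118472 on the minus strand for Parp12 and chr9:106476950-106477199 on the minus strand for Parp3.

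In the Parp11 stretch a response element core begins 44 bases before the start, in reverse orientation, and a GAS core that overlaps it begins 37 bases before the start. Parp4, a member of the constitutive set, holds 2 overlapping response element cores that begin 150 and 144 bases before its start. No match to either core was found in the windows of Parp12, Dtx3l, Parp1, Parp2 and Parp3 or at the second start of Parp11. In the Dtx3l, Parp2 and Parp12 windows a large part of the bases before the start lies in exons, so there the search was partly one of exons. Of 32851 RefSeq windows of the same length in the mouse genome, 3.44% hold the response element core and 8.30% the GAS core. The core of the κB site, the site of NF-κB, written GGGAANNNCC, was found in the Parp11 window alone, 121 bases before the start, against 5.78% of all windows. The core of the antioxidant response element, the NRF2 site, written TGACNNNGC, was in none of the 8 windows, against 12.4% of all. The windows also differ in composition: GC content was 73.7% with 46 CG pairs for Parp12 and 42.0% with 5 CG pairs at the first Parp11 start, beside medians of 52.7% and 7.0 over all windows. Parp9, Parp10 and Parp14 were not matched.

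Libraries held 15598531 to 21320618 counts, so that 1 count was worth 0.0469 to 0.0641 CPM (the count per 1e+06 counts of its library). The quasi-likelihood test of edgeR, with p-values adjusted over the 11841 genes it covered and a threshold of 0.05, called 1999 as higher (16.9%) and 2392 as lower (20.2%) in the MB-3 libraries, around a median log2 fold change of -0.01. Leaving out MB-3 replicate 1 took the count of higher genes to 1283. Of 6 macrophage markers, Adgre1, Cd68, Csf1r, Itgam and Lyz2 had log2 fold changes from 0.08 to 1.78, and Fcgr1 had one of -2.38. The summed level of the 6 was 30297 to 30492 CPM with MB-3 and 23250 to 23745 CPM with DMSO, mostly from Lyz2. Markers of B, NK and mast cells, eosinophils and dendritic cells each summed to at most 4.07 CPM in any library, and mesothelial or stromal markers to 7.88 to 26.3 CPM. T cell markers summed to 2.23 and 2.85 CPM with MB-3 and 17.7 and 17.3 CPM with DMSO, mostly from Lck, with Cd3e at 2 counts in the 4 libraries together. Neutrophil markers summed to 12.3 and 9.93 CPM with MB-3 and 21.6 and 22.2 CPM with DMSO, nearly all from S100a8, with Ly6g and Elane at 0. The part of these markers in the results was not tested.

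All 6 genes of the interferon-induced set had both MB-3 libraries below both DMSO libraries, where 70.8% of all tested genes had groups that did not overlap in either direction, and their log2 fold changes (MB-3 over DMSO) ran from -2.17 to -0.55 with a median of -0.99. The same order of groups, MB-3 below DMSO, held in 37.0% of all tested genes. In the constitutive set all 4 genes also had MB-3 below DMSO, with log2 fold changes from -1.96 to -0.17 and a median of -0.51. All 10 genes passed the filter on low counts. At an adjusted p of 0.05 over all genes, 6 of 6 interferon-induced genes and 1 of 4 constitutive genes were on the lower side, beside 20.2% of all tested genes, and nothing is read from these counts because the genes were chosen on the same difference. The constitutive count was 3 when libraries were scaled to their totals alone and 2 when every gene with a count was kept.

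**Figure D1:**
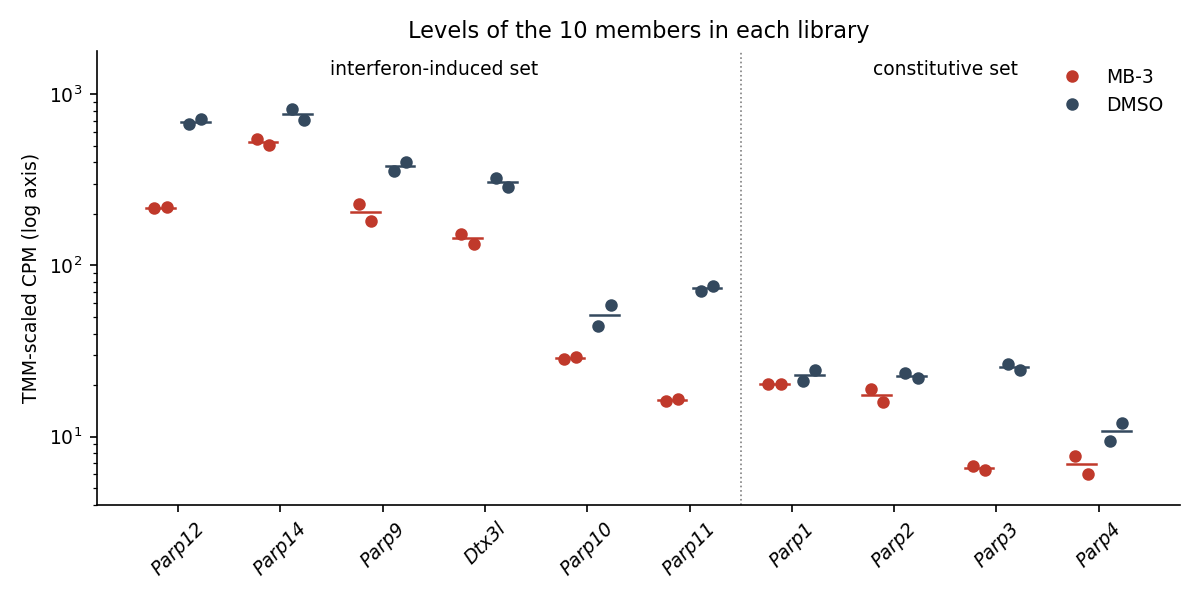
TMM-scaled CPM (log axis) of the 10 genes in each library, MB-3 (red, left) and DMSO (dark, right), with a bar at the mean of 2 libraries. Both MB-3 points lie below both DMSO points for every gene, with the widest gaps for Parp11, Parp3 and Parp12 and the narrowest for Parp1.

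Parp12 (ENSMUSG00000038507, chromosome 6 from 39086410 to 39118349) encodes a zinc-finger PARP that attaches single ADP-ribose units. It had 215 and 218 CPM in the MB-3 libraries, against 673 and 715 CPM in the DMSO libraries. The groups lie far apart and each pair of replicates close together. The level was 3.20-fold lower with MB-3 (log2 fold change -1.68, SE 0.072, n = 2 each). On the per-length scale Parp12 was the most abundant gene of the family with DMSO, at 166 ± 9.09 FPKM. It had 50.4 ± 1.86 FPKM with MB-3 (SD, n = 2 each). In CPM the mean of Parp14 was above that of Parp12, at 767 against 694 with DMSO and 524 against 217 with MB-3.

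Parp14 (ENSMUSG00000034422, chromosome 16 from 35832874 to 35871544) encodes a large PARP with macrodomains, folds that bind ADP-ribose, and is known in mouse lymphocytes as a cofactor of STAT6. Its level was 545 and 503 CPM with MB-3, against 822 and 711 CPM with DMSO. The MB-3 libraries are lower without overlap, but the gap between the groups is not much wider than the gap between the DMSO replicates. This was the least changed gene of the interferon-induced set, 1.46-fold lower with MB-3 (log2 fold change -0.55, SE 0.093), and -0.39 without DMSO replicate 1.

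Parp9 (ENSMUSG00000022906, chromosome 16 from 35938470 to 35972605) encodes a macrodomain PARP that is the partner of DTX3L. It was at 228 and 182 CPM with MB-3 and at 356 and 403 CPM with DMSO, a log2 fold change of -0.89 (SE 0.13). Dtx3l (ENSMUSG00000049502, chromosome 16 from 35926511 to 35939151), the ubiquitin ligase gene, had 154 and 134 CPM with MB-3 and 325 and 289 CPM with DMSO, a log2 fold change of -1.09 (SE 0.10). Parp9 was 1.85-fold and Dtx3l 2.13-fold lower with MB-3, with no overlap between groups. Within a library the ratio of Parp9 to Dtx3l FPKM was 1.74 and 1.60 with MB-3, against 1.29 and 1.64 with DMSO. That ratio overlapped between the groups. With 2 libraries a group and DMSO values this far apart, a kept and a changed proportion cannot be told apart.

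Parp10 (ENSMUSG00000063268, chromosome 15 from 76231174 to 76243441) encodes a transferase of single ADP-ribose units. It was at 28.5 and 29.3 CPM with MB-3 and 44.6 and 58.5 CPM with DMSO, a log2 fold change of -0.83 (SE 0.14) that was -0.61 without DMSO replicate 2. Its interval shares 1401 bases with Plec on the same strand, which had 8.21 and 13.7 CPM with MB-3 and 15.5 and 23.6 CPM with DMSO, so reads of the shared stretch cannot be assigned with certainty. Parp11 (ENSMUSG00000037997, chromosome 6 from 127446840 to 127494261) encodes a small transferase that in human cells is reported to act on turnover of the interferon receptor. It had 16.03 and 16.7 CPM with MB-3, against 71.4 and 75.8 CPM with DMSO. This was the lowest log2 fold change among the 10 genes, -2.17 (SE 0.095), a 4.50-fold lower level with MB-3, and its replicates differed by 1.04-fold with MB-3 and 1.06-fold with DMSO.

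Among the constitutive set, Parp3 stood apart from its 3 companions. Parp3 (ENSMUSG00000023249, chromosome 9 from 106470322 to 106476949), whose protein acts in repair of DNA breaks, had 6.76 and 6.36 CPM with MB-3, against 26.5 and 24.4 CPM with DMSO. It was 3.88-fold lower with MB-3 (log2 fold change -1.96, SE 0.13), a difference between those of Parp11 and Parp12. On this difference Parp3 lies with the interferon-induced genes, against the set in which it was placed. Its interval shares 987 bases with Rrp9 on the opposite strand, which had 29.9 and 27.2 CPM with MB-3 and 28.5 and 29.8 CPM with DMSO.

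Parp1 (ENSMUSG00000026496, chromosome 1 from 180568924 to 180601254), the main chain-building enzyme at DNA breaks, had 20.3 and 20.3 CPM with MB-3, against 21.1 and 24.6 CPM with DMSO. Its log2 fold change of -0.17 (SE 0.12) was the smallest of the 10. Parp2 (ENSMUSG00000036023, chromosome 14 from 50807946 to 50821300), which shares that role, had 19.0 and 15.8 CPM with MB-3 and 23.6 and 21.9 CPM with DMSO (log2 fold change -0.38, SE 0.13). Parp4 (ENSMUSG00000054509, chromosome 14 from 56575619 to 56659794), the PARP of vault particles, was at 7.71 and 6.02 CPM with MB-3 and at 9.37 and 12.0 CPM with DMSO (log2 fold change -0.63, SE 0.21). For Parp1, Parp2 and Parp4 the groups did not overlap, but the gap between them was narrower than the wider of the gaps between replicates.

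Because the interferon-induced genes moved by different amounts, the make-up of the set differed between the groups. The ratio of Parp12 to Parp14 FPKM within a library, which does not depend on library scaling, was 1.06 and 1.17 with MB-3 and 2.20 and 2.70 with DMSO. Parp14 to Dtx3l was 2.26 and 2.38 with MB-3 and 1.61 and 1.57 with DMSO, and Parp11 to Parp10 was 0.317 and 0.322 with MB-3 and 0.905 and 0.732 with DMSO. None of these ratios overlapped between the groups. They restate the levels of the chosen genes given above and are not a separate result. The share of other gene pairs without overlap was not counted. In the constitutive set Parp3 to Parp1 was 0.343 and 0.324 with MB-3 and 1.29 and 1.02 with DMSO. The summed FPKM of the 6 interferon-induced genes was 156 and 149 with MB-3 and 347 and 358 with DMSO, and that of the 4 constitutive genes was 14.9 and 13.4 with MB-3 and 21.2 and 21.1 with DMSO. The first sum over the second was 10.5 and 11.2 with MB-3, against 16.4 and 16.97 with DMSO. In bulk RNA, fewer cells that express a gene and less RNA per cell cannot be told apart.

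**Figure D2:**
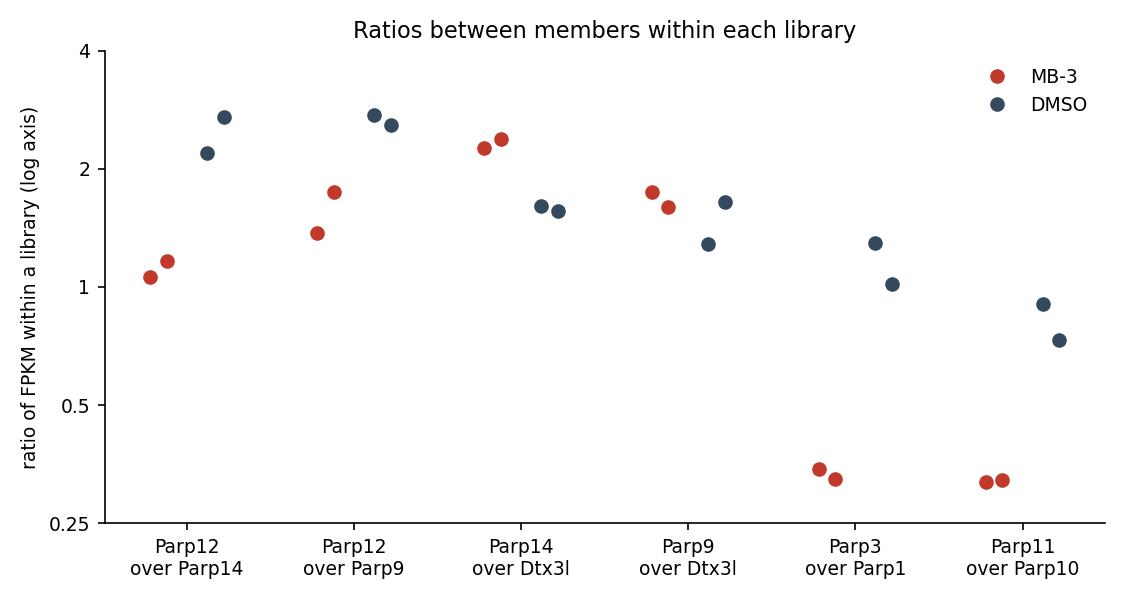
Ratio of FPKM between 2 genes within each library (log axis), MB-3 (red, left) and DMSO (dark, right), 1 point per library. Parp12 over Parp14, Parp12 over Parp9, Parp3 over Parp1 and Parp11 over Parp10 are lower in both MB-3 libraries, Parp14 over Dtx3l is higher, and Parp9 over Dtx3l overlaps.

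Parp14, Dtx3l and Parp9 lie side by side on chromosome 16, and Dtx3l and Parp9 start head to head: the deposited intervals of Parp9 (plus strand) and Dtx3l (minus strand) share 682 bases. The libraries were strand-specific, but no source used here says whether the counting used strand, and reads from the shared stretch could have gone to either gene. Between Parp14 and Dtx3l the gap is 55.0 kb. Of 8 other genes within 100 kb of the 3, 6 were tested. Dirc2, a transporter gene, fell by 0.72 on the log2 scale (SE 0.11, edgeR adjusted p = 0.00430), to 53.2 and 44.6 CPM with MB-3 against 83.8 and 76.8 CPM with DMSO. Wdr5b fell by 1.93 (SE 0.34, edgeR adjusted p = 0.00593) at low levels of 1.17 and 1.62 CPM with MB-3 and 6.29 and 4.32 CPM with DMSO. Hspbap1 (-0.11, SE 0.21), Fam162a (0.02, SE 0.19) and Ccdc58 (-0.51, SE 0.17, edgeR adjusted p = 0.0566) did not pass, and without DMSO replicate 2 the value of Hspbap1 was 0.10. Fam162a was at -0.18 without DMSO replicate 1 and -0.0030 without MB-3 replicate 1. Kpna1, an importin gene, had 55.5 and 139 CPM in the MB-3 libraries and 88.8 and 87.6 CPM in the DMSO libraries. The MB-3 replicates of Kpna1 thus lie on either side of DMSO, and its log2 fold change of 0.14 was 0.66 without MB-3 replicate 1 and -0.67 without MB-3 replicate 2.

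**Figure D3:**
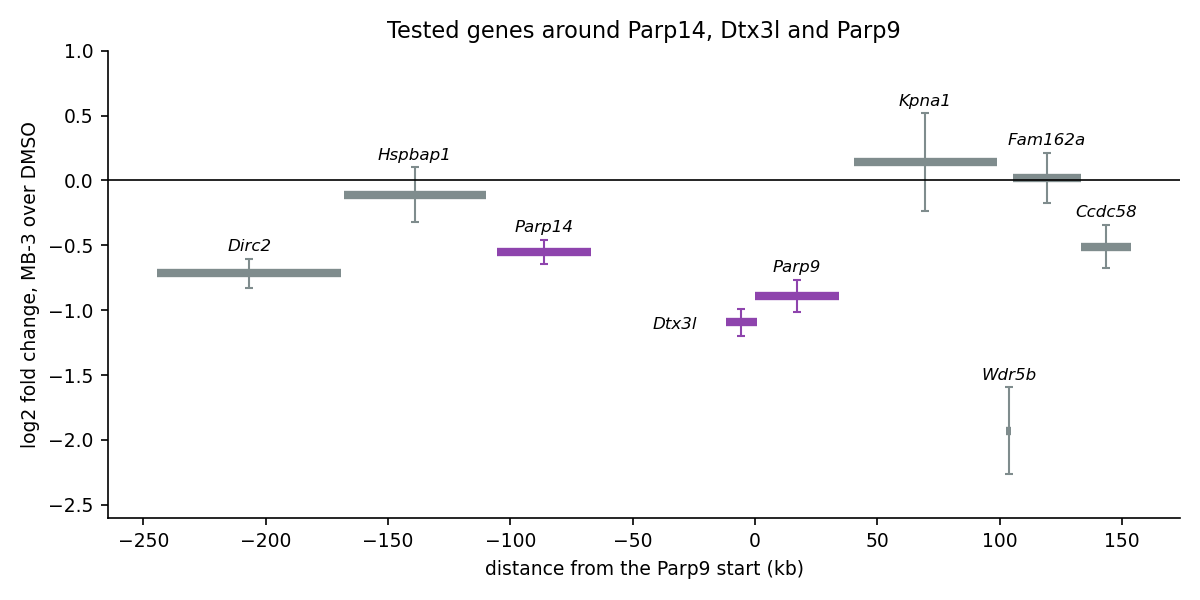
Log2 fold change (MB-3 over DMSO) of each tested gene within 100 kb of Parp14, Dtx3l and Parp9, plotted over the gene's extent in kb from the Parp9 start, with vertical bars for the standard error. The 3 PARP-locus genes (purple) lie between -1.09 and -0.55, Dirc2 and Wdr5b are also below 0, and Hspbap1, Fam162a and Kpna1 span 0.

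The 7 other PARP family genes, which are not among the 10, went mostly the other way. In edgeR's quasi-likelihood test 5 of 7 rose, beside 16.9% of all tested genes, 1 fell, beside 20.2%, and 1 did not pass, with a median log2 fold change of 0.41. Zc3hav1, whose protein ZAP binds CG-rich viral RNA and lacks transferase activity, rose to 415 and 350 CPM with MB-3, against 259 and 252 CPM with DMSO (0.58, SE 0.097, edgeR adjusted p = 0.00513). Zc3hav1 is itself known as an interferon-stimulated gene. Its direction was opposite to that of all 6 interferon-induced members, which were chosen with this difference known. Parp16, which encodes a PARP of the endoplasmic reticulum membrane, had 5.87 and 7.14 CPM with MB-3 and 1.40 and 2.26 CPM with DMSO, a 3.60-fold rise (1.85, SE 0.31, edgeR adjusted p = 0.00518). Parp8 went far in the other direction, at 12.7 and 11.4 CPM with MB-3 and 71.6 and 73.8 CPM with DMSO (-2.59, SE 0.10, edgeR adjusted p = 1.91e-05). Its log2 fold change was lower than that of any of the 10 members.

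Smaller rises were those of Tiparp, Tnks2 and Parp6. Tiparp, a PARP gene switched on by the aryl hydrocarbon receptor, had 179 and 171 CPM with MB-3 and 143 and 129.9 CPM with DMSO (0.36, SE 0.084, edgeR adjusted p = 0.0173). Tnks2, the gene of tankyrase-2, a chain-building enzyme, had 132 and 128 CPM with MB-3 and 92.8 and 102 CPM with DMSO (0.41, SE 0.087, edgeR adjusted p = 0.0122). Parp6 had 21.4 and 18.8 CPM with MB-3 and 15.3 and 14.7 CPM with DMSO (0.42, SE 0.13, edgeR adjusted p = 0.0434). Tnks, the gene of the related tankyrase-1, had 8.77 and 12.3 CPM with MB-3 and 11.9 and 10.3 CPM with DMSO and did not pass (-0.08, SE 0.20, edgeR adjusted p = 0.788). The rises in this paragraph are close to the threshold: without MB-3 replicate 1 the edgeR adjusted p was 0.0864 for Tiparp, 0.0638 for Tnks2 and 0.190 for Parp6, which left 2 of 7 genes as higher. Parp6 also missed the threshold without each of the other 3 libraries, with an edgeR adjusted p of 0.0608 to 0.107. Tnks was at 0.08 without DMSO replicate 1 and 0.14 without MB-3 replicate 1.

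**Figure D4:**
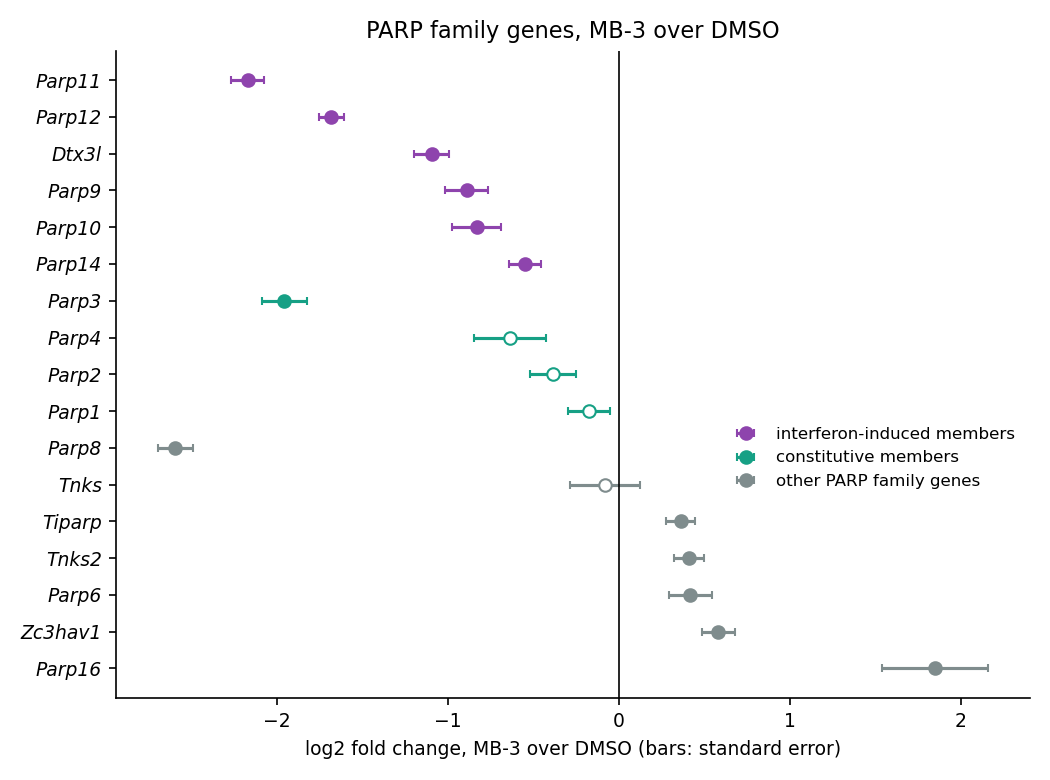
Log2 fold change (MB-3 over DMSO) of the 10 members (purple and green) and of the 7 other PARP family genes (grey), with bars for the standard error and open points for genes that did not pass an edgeR adjusted p of 0.05; for the members this is a description. Every member lies below 0, while 5 of the 7 other genes lie above 0 and Parp8 is lowest at -2.59.

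Per length, the order of the 17 genes differed between the groups. With DMSO the highest levels were those of Parp12 (166 ± 9.09 FPKM), Parp14 (68.2 ± 6.19), Parp9 (62.5 ± 6.21), Dtx3l (43.0 ± 3.12) and Zc3hav1 (33.2 ± 0.242; SD, n = 2 each), and in this order only Parp14 and Parp9 overlapped between neighbours. With MB-3 they were Parp12 (50.4 ± 1.86 FPKM), Zc3hav1 (48.1 ± 4.48), Parp14 (45.2 ± 1.34), Tiparp (32.7 ± 0.158) and Parp9 (32.7 ± 4.30; SD, n = 2 each). Among these, Parp12 and Zc3hav1, Zc3hav1 and Parp14, and Tiparp and Parp9 overlapped. Parp12 alone made up 18.5% of the summed FPKM of the 17 genes with MB-3, against 35.2% with DMSO. At the low end with MB-3 were Parp11 (1.25 ± 0.0691 FPKM), Parp4 (0.934 ± 0.137) and Parp3 (0.902 ± 0.0144), of which Parp4 and Parp3 overlapped. Parp10 (7.21 ± 1.46 FPKM) and Parp11 (5.81 ± 0.317 FPKM) were below Parp2 (12.9 ± 0.537 FPKM) with DMSO. Per length, the interferon-induced set was thus not uniformly the more abundant. In CPM, which is not divided by length, Parp10 (51.5) and Parp11 (73.6) were above Parp2 (22.7) in the DMSO means. In the MB-3 means Parp10 (28.9) was above Parp2 (17.4) and Parp11 (16.4) was below it, with the libraries of Parp11 and Parp2 overlapping.

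Of 11 listed genes that remove ADP-ribose, 10 were tested. Of these 3 fell (30.0%, beside 20.2% of all genes), 0 rose, beside 16.9%, and 7 did not pass, with a median of -0.09; 37.1% of all tested genes were called in either direction. At an unadjusted p under 0.05 in edgeR 1 was higher, and DESeq2 and limma called 0 as higher. Nudt16, whose product can trim ADP-ribose from proteins, fell to 3.74 and 2.57 CPM with MB-3, against 11.6 and 12.2 CPM with DMSO (-1.91, SE 0.23, edgeR adjusted p = 0.00131). Adprh, which encodes an enzyme that frees arginine from ADP-ribose, had 122 and 115 CPM with MB-3 and 172 and 149 CPM with DMSO (-0.44, SE 0.096, edgeR adjusted p = 0.0140). Nudt9, an ADP-ribose pyrophosphatase gene, had 60.8 and 61.5 CPM with MB-3 and 83.0 and 75.4 CPM with DMSO (-0.37, SE 0.089, edgeR adjusted p = 0.0197). Without DMSO replicate 1 the edgeR adjusted p was 0.0630 for Adprh and 0.128 for Nudt9, and without MB-3 replicate 2 it was 0.0709 and 0.0803; Nudt9 was at 0.0932 without MB-3 replicate 1. Leaving out DMSO replicate 1 or MB-3 replicate 2 each left 1 gene as lower. Adprhl2, which frees serine from ADP-ribose, had 37.6 and 39.5 CPM with MB-3 and 38.9 and 39.8 CPM with DMSO (-0.03, SE 0.090), with a sign that turned in 2 of the 4 omissions at 0.0022 and 0.0080. Nudt5 also did not pass (-0.19, SE 0.10).

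Readers of ADP-ribose and partners of PARP proteins split in direction: of 12 tested, 3 rose, beside 16.9% of all genes, and 4 fell (33.3%, beside 20.2%), with a median of 0.02. Aplf, a DNA repair factor that binds ADP-ribose chains, rose to 15.1 and 11.8 CPM with MB-3, against 5.13 and 5.33 CPM with DMSO (1.36, SE 0.19, edgeR adjusted p = 0.00248). Polb, the gene of the base excision repair polymerase beta, fell to 16.7 and 19.1 CPM with MB-3, against 35.4 and 40.4 CPM with DMSO (-1.08, SE 0.13, edgeR adjusted p = 0.00119). H2afy, which encodes the macrodomain histone macroH2A1, was at 84.4 and 72.7 CPM with MB-3 and 126 and 146 CPM with DMSO (-0.79, SE 0.12, edgeR adjusted p = 0.00309). Dtx2, a Deltex relative of Dtx3l, fell by 0.70 (SE 0.13, edgeR adjusted p = 0.00798), while its relative Dtx3 did not pass (0.01, SE 0.13). Dtx4, a further relative named after its value was seen, rose (0.38, SE 0.11, edgeR adjusted p = 0.0397). It had 111 and 96.6 CPM with MB-3 and 85.2 and 73.7 CPM with DMSO. Its log2 fold change ran from 0.28 to 0.54 when single libraries were left out. Without MB-3 replicate 1 Dtx3 was at -0.12, and 1 gene of the list was higher. Rnf146, a ubiquitin ligase that reads ADP-ribose chains, had 67.5 and 56.3 CPM with MB-3 and 39.5 and 50.4 CPM with DMSO and missed the threshold (0.46, SE 0.15, edgeR adjusted p = 0.0519). It passed in 7 of 11 alternatives: without DMSO replicate 2 (edgeR adjusted p = 0.0125), without MB-3 replicate 2 (0.0482), with DESeq2 size factors (0.0413), with every gene with a count (0.0105), with a mean of at least 5 CPM (0.0434), in DESeq2 (0.0171) and with the replicate block (0.0325). Over all 11 its adjusted p ran from 0.0105 to 0.210.

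NAD+ is the substrate of every active PARP, and the list of its synthesis and use holds 19 genes. Of 16 tested, 2 rose (12.5%, beside 16.9% of all genes), 2 fell (12.5%, beside 20.2%) and 12 did not pass, with a median of -0.02. Cd38, which encodes an NAD+-consuming ectoenzyme, fell to 13.9 and 10.9 CPM with MB-3, against 30.5 and 33.4 CPM with DMSO (-1.37, SE 0.15, edgeR adjusted p = 9.06e-04). Nampt, the gene of the rate-limiting enzyme of NAD+ salvage, had 927 and 926 CPM with MB-3 and 1123 and 1107 CPM with DMSO (-0.27, SE 0.062, edgeR adjusted p = 0.0175). Its edgeR adjusted p was 0.106 without DMSO replicate 1, 0.0571 without MB-3 replicate 1 and 0.0556 without MB-3 replicate 2. The deacetylase genes Sirt3 (0.79, SE 0.23, edgeR adjusted p = 0.0361) and Sirt1 (0.37, SE 0.11, edgeR adjusted p = 0.0413) rose. Neither passed in DESeq2 (adjusted p of 0.0713 for Sirt3 and 0.0841 for Sirt1). Leaving out single libraries put the edgeR adjusted p of Sirt3 at 0.0550 to 0.143 and that of Sirt1 at 0.0464 to 0.174, where Sirt1 passed only without DMSO replicate 1. Nadk (-0.23, SE 0.17) did not pass, with 0.06 without DMSO replicate 1 and -0.43 without DMSO replicate 2 (edgeR adjusted p = 0.0397). Sirt2 (-0.24, SE 0.14) passed without MB-3 replicate 1 alone (-0.45, edgeR adjusted p = 0.0441).

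The list for the type I interferon receptor and ISGF3, a complex with STAT2 and IRF9 that switches on interferon-stimulated genes, held 10 genes. Ifnb1, Irf1 and Irf7 were on this list without being receptor, kinase or ISGF3 genes. Of the 10, 6 were lower (60.0%, beside 20.2% of all), Irf7 among them, 0 were higher, beside 16.9%, and 4 did not pass. The median was -1.14. In edgeR 0 were higher at an unadjusted p under 0.05, and DESeq2 and limma called 0 as higher. Stat2, the gene of an ISGF3 subunit, had 112 and 114 CPM with MB-3 and 258 and 237 CPM with DMSO (-1.13, SE 0.080, edgeR adjusted p = 1.51e-04), and the receptor kinase gene Tyk2 had 17.5 and 17.4 CPM with MB-3 and 42.1 and 44.2 CPM with DMSO (-1.31, SE 0.098, edgeR adjusted p = 1.91e-04). Irf9, also the gene of an ISGF3 subunit, was named here after its value was seen. It had 185 and 175 CPM with MB-3 and 208 and 186 CPM with DMSO and did not pass (-0.13, SE 0.086). The receptor genes Ifnar1 and Ifnar2 were named after their values were seen as well. Ifnar1 had 146 and 131 CPM with MB-3 and 322 and 289 CPM with DMSO (-1.14, SE 0.095, edgeR adjusted p = 2.89e-04). Ifnar2 was lower by less (-0.43, SE 0.087, edgeR adjusted p = 0.0108), at -0.49 to -0.30 when single libraries were left out. Irf7, the gene of a factor that amplifies interferon production, was at 49.2 and 48.4 CPM with MB-3, against 549 and 534 CPM with DMSO (-3.47, SE 0.076, edgeR adjusted p = 2.91e-06). Irf1 (-0.37, SE 0.14) did not pass (edgeR adjusted p = 0.0847), but passed in 5 of 11 alternatives. These were leaving out DMSO replicate 2 (-0.50, edgeR adjusted p = 0.0304) or MB-3 replicate 1 (-0.56, edgeR adjusted p = 0.0330), scaling to library totals (edgeR adjusted p = 0.0402), keeping every gene with a count (edgeR adjusted p = 0.0149) and the replicate block (edgeR adjusted p = 0.0025). The kinase gene Jak1 did not pass, at 257 and 219 CPM with MB-3 and 254 and 221 CPM with DMSO, with log2 fold changes from -0.12 to 0.15 when single libraries were left out. Ifnb1, the gene of interferon beta, also named after its counts were seen, had 6 and 1 counts in the MB-3 libraries and 12 and 12 counts in the DMSO libraries, too few to compare closely.

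**Figure D5:**
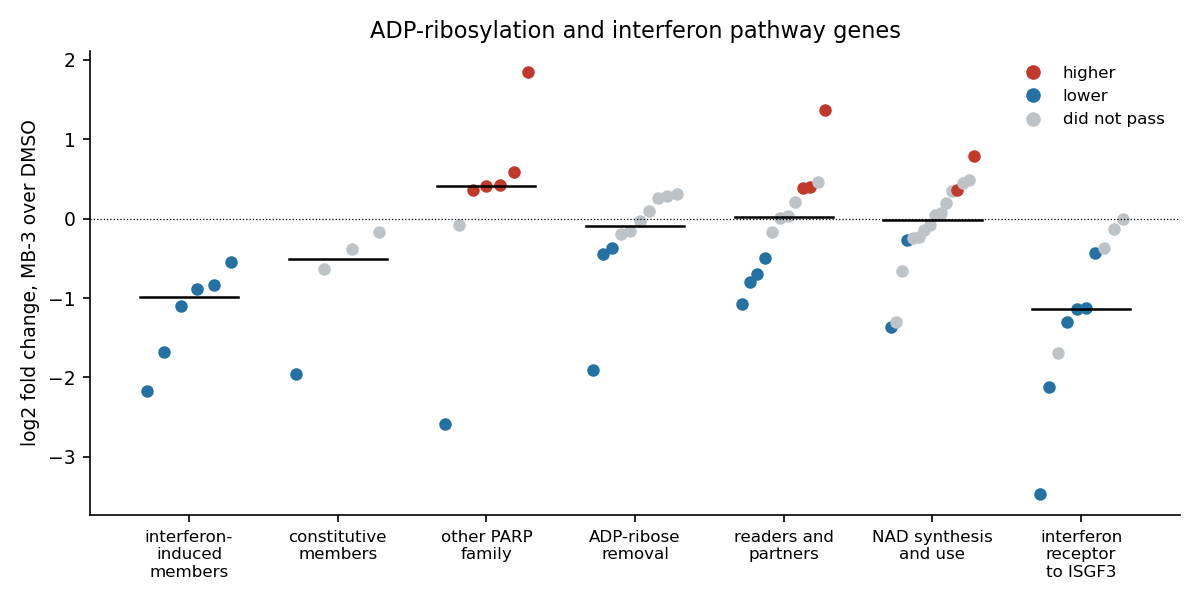
Log2 fold change (MB-3 over DMSO) of each tested gene in 7 lists, coloured by whether it was higher, lower or did not pass an edgeR adjusted p of 0.05, with a bar at the list's median. The medians are -0.99 and -0.51 for the 2 member sets and 0.41 for the other PARP family. They are -0.09, 0.02 and -0.02 for the removal, reader and NAD+ lists, and -1.14 for the interferon receptor list.

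Over the 4 libraries, the 3 genes nearest to Parp14 in centred log2 CPM, out of 7522 genes that averaged 10 CPM or more, were Arhgap9 (distance 0.0347), Kat6a (0.0458) and Lonp2 (0.0465), with log2 fold changes of -0.55, -0.52 and -0.60. Nearest to Parp1 were Rps6ka1 (0.0300), Gpx4 (0.0337) and Sec61g (0.0357), with log2 fold changes from -0.17 to -0.15. The distance is over 4 libraries and is a description of these libraries only. Arhgap9 and Kat6a lost their call without DMSO replicate 1 (edgeR adjusted p of 0.0763 and 0.0828) and without MB-3 replicate 2 (0.0699 and 0.0666).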

How the data were processed

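RNA of 4 libraries, 2 from MB-3 and 2 from DMSO samples, was taken from a single deposited table. Its counts, which the authors deposited as whole numbers per gene, carry no normalization. The deposited FPKM values are scaled to the length of a gene and the library's total. They gave the same gene length from each count within 0.1% in 100% of pairs, so they rescale the same counts. For Parp3 that length was 7153 bases, more than its deposited interval spans. Orders of genes by FPKM depend on these lengths, which were not checked. The submitters' processing notes name the builds GRCm38.p4 and mm10 and the tools HISAT2, StringTie 1.3.0 and edgeR. For the annotation release, strand and multi-mapped reads the choice made is not given in the sources used here. Columns were matched to samples by replicate number and group name or initial, 0 columns of per-sample values being left unused.

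The count test was that of edgeR 4.0.16, run in R 4.3.3 (glmQLFit, glmQLFTest, group only, filterByExpr, TMM factors of 0.966 to 1.02), with Benjamini-Hochberg adjustment over 11841 genes. CPM values are TMM-scaled, and a standard error (SE) is the size of the log2 fold change over the root of its F statistic. The biological coefficient of variation was 0.126. The procedure was run on simulated data with 200 changed genes, far fewer than were called here. Changes as small as many of those given here were not simulated, so the simulation does not cover them. Alternatives used DESeq2 1.42.0, limma 3.58.1 (prior count 3), other scalings and filters (every gene with a count, or a mean of at least 5 CPM), a replicate block and each library left out. Replicates differed beyond sampling noise (chi-square over its degrees of freedom 11.1 for MB-3 and 13.0 for DMSO). The labels do not say that replicates are separate cultures or mice. The p-values thus cover the spread among these 4 libraries, and that spread could be technical.

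The 10 genes, the gene lists, the motifs and the rule for named genes were chosen with earlier results of these data known. The rule named the 10 genes and 7 other PARP family genes, up to 4 called genes of smallest p and up to 2 most abundant uncalled genes of each other list, genes within 100 kb of the Parp9 locus, and the 3 genes nearest to Parp14 and to Parp1. 1 gene that the rule names in the interferon receptor list is not reported here. Strand and exons came from GENCODE M21, and promoter sequences from RefSeq (GRCm38.p6). Of the listed symbols, Adprs, Hpf1 and Macroh2a1 appear in the table as Adprhl2, 2700029M09Rik and H2afy and were matched by Ensembl identifier, as was Itgam.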

Additional observations from a re-analysis of the deposited data

How the results depend on the processing

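Each member was fitted in 11 alternatives, which reuse the same 4 libraries, and each gene in each alternative gave 1 value. The 6 interferon-induced genes and Parp3 kept their direction and their side of the threshold in 77 of 77 such values. No member turned in 110 values. Nothing is read from these counts, because the members were chosen on the same difference. Parp2 and Parp4 changed side: scaling to library totals alone gave 3 lower constitutive genes, keeping every gene with a count gave 2, and the replicate block gave 2. Other named genes kept both in 464 of 547 values. Genes of NAD+ synthesis and use that rose numbered 1 with library totals, 1 with the mean of at least 5 CPM and 0 with DESeq2. Leaving out each library gave 1283 to 1802 higher genes in all, 2 to 4 higher genes of the other PARP family, and 0 to 1 higher and 1 to 3 lower of the removal list. It also gave 1 to 3 higher genes of the reader list and 0 to 1 higher and 1 to 3 lower of the NAD+ list. Where no library was left out, log2 fold changes that turned were close to 0. Dtx3 was at -0.0358 and Jak1 at -0.0427 with library totals, and Jak1 at -0.0022 with every gene kept. Fam162a was at -0.0258 with library totals and Kpna1 at -0.0055 with limma. With each library left out, the ranges were -0.34 to 0.14 for Tnks, -0.0640 to 0.0080 for Adprhl2, -0.12 to 0.13 for Dtx3, -0.43 to 0.0642 for Nadk, -0.12 to 0.15 for Jak1, -0.25 to 0.10 for Hspbap1, -0.67 to 0.66 for Kpna1, -0.18 to 0.30 for Fam162a and -0.10 to 0.0400 for Rrp9. Causes were not tested. The replicate numbers share nothing but a number in the labels: the difference between replicates 1 and 2 correlated with r = 0.205 between the groups across 11024 genes, and with 2 pairs the pairing could not be established. Fitted as a replicate block it called 5046 genes, against 4391, and beside the constitutive count of 2 given above it moved no other count here by more than 1.5 times.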
